A study of Oryctolagus cuniculus with 4 samples.

Results

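The comparison set the ligamentum flavum of the intervertebral stress concentration level (ISC level, L3/4) of operated rabbits against the control ligament of the same level. It was chosen by sample label and comprised 2 of the 4 arrays of the study, 1 array on each side. In the operated male rabbits the muscle over L3/4 was resected at 18 weeks of age and posterolateral fusion with instrumentation was done at L2/3 and L4/5. This left L3/4 as the free level between fused ones, and ligaments were taken at an age of 34 weeks, 16 weeks after surgery. The control of L3/4 was from rabbits of the same age, labelled with the same time after surgery. The other arrays held the ligament of the fused levels (L2/3, L4/5) and the control of L2/3 and L4/5, called the other control below, and their values are given beside the comparison. Whether the controls were operated on, how many animals gave each RNA and whether it was pooled are not given in the labels. Concentrated stress and the local removal of muscle cannot be told apart in this design.

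The ligamentum flavum joins the laminae of neighbouring vertebrae and is unusually rich in elastic fibres, with type I collagen and small proteoglycans between them and few, scattered fibroblasts. Overload of a spinal segment is known to be followed by thickening of this ligament, in which collagen accumulates, elastic fibres are lost and matrix-degrading enzymes and inflammatory mediators appear. Ligament cells sense load through adhesions to the matrix, ion channels and gap junctions, and respond through growth factors of the TGF-beta, FGF and PDGF families. The ELN and FBN1 genes of the elastic fibre itself were not among the genes that could be named and are not analysed here.

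At the ISC level, the matrix and protease genes COL8A1, BGN, CTSK and MMP13, the acute-phase and chemokine genes SAA3, HP and CCL2, the gap junction genes GJA1 and GJC1, the lipid genes LPL, VLDLR and APOD and the growth factor genes HGF, PDGFD, TGFB2 and FGF2 had signal higher by 2-fold or more than in the control of L3/4. The contractile genes MYH11, ACTA2 and TPM2, the muscle genes CASQ2 and SLN, the growth factor genes IGF1, FGF7 and BMP4, and the ribosomal protein genes RPS20, RPS29, RPL10 and RPL23A were at least 2-fold lower. The normexp background correction was run on median spot signals in place of the scanner's, with an offset of 50. That offset makes differences of dim probes smaller. With normexp, 36 of 116 rechecked genes kept 2-fold. Of the genes just given, COL8A1, BGN, CTSK, SAA3, HP, GJA1, LPL, VLDLR, APOD, MYH11, CASQ2, SLN, RPS20 and RPS29 were among these and the rest were not. In the lists of FGF, IGF, HGF, PDGF and EGF signalling, of TGF-beta and BMP signalling and of cytokines, 0 genes passed 2-fold in either direction with it. CD59, FGFR2, POU5F1 and PTGS2, given below, were at 0.15, 0.13, 0.073 and 0.28 with it. When the ISC level was set against the other control, 25 of the 116 genes kept 2-fold in the same direction and 89 their sign. COL8A1, HGF, PDGFD, CASQ2 and SLN were among those 25. BGN was at 0.15 there, and the sign turned for VLDLR (−1.27) and for IGF1 (0.67, not well above background on that array). With 1 array a side there is no replicate, no test and no p-value, and 2-fold is a fixed size. There were 13728 features (named genes, or transcripts without a name) whose probes read well above background on the 2 arrays. At the ISC level 1246 of them (9.08%) were higher by 2-fold or more and 1440 (10.5%) lower, 2686 (19.6%) in all. Among the 965 named genes so measured, 88 (9.12%) were higher and 112 (11.6%) lower, 200 (20.7%) in all, and 16 in each direction differed by at least 4-fold. The median difference was −0.17 on the log2 scale over all features and −0.21 over named genes, and 90% of features lay between the 5th percentile of −1.33 and the 95th percentile of 1.33. In whole ligament, fewer cells of a type and less RNA per cell cannot be told apart.

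Levels below are log2 of the processed spot signal minus the array's 75th percentile, so 0 is the signal of a probe at that percentile, and levels of different genes, read by different probes, are not compared. A difference is the level at the ISC level minus that in the control of L3/4. Its ± is the scanner software's own spot error carried to the difference, and it holds nothing of the spread between animals. This spot error had a median of 0.22 and a highest value of 0.48 over the 2686 features called in either direction. All 2686 differed by more than 2 times their own. With errors of that size the 2-fold cut, a log2 difference of 1, fixes this in advance, so it says nothing further about the calls. Of the probes, 67.9% were well above background on the array of the ISC level and 59.6% on that of the control of L3/4, against 65.0% at the fused levels and 61.1% in the other control. The 75th percentile itself was a signal of 93.7, 53.4, 85.4 and 72.7 in the same order, so the control of L3/4 was the dimmest array before scaling.

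**Figure D1:**
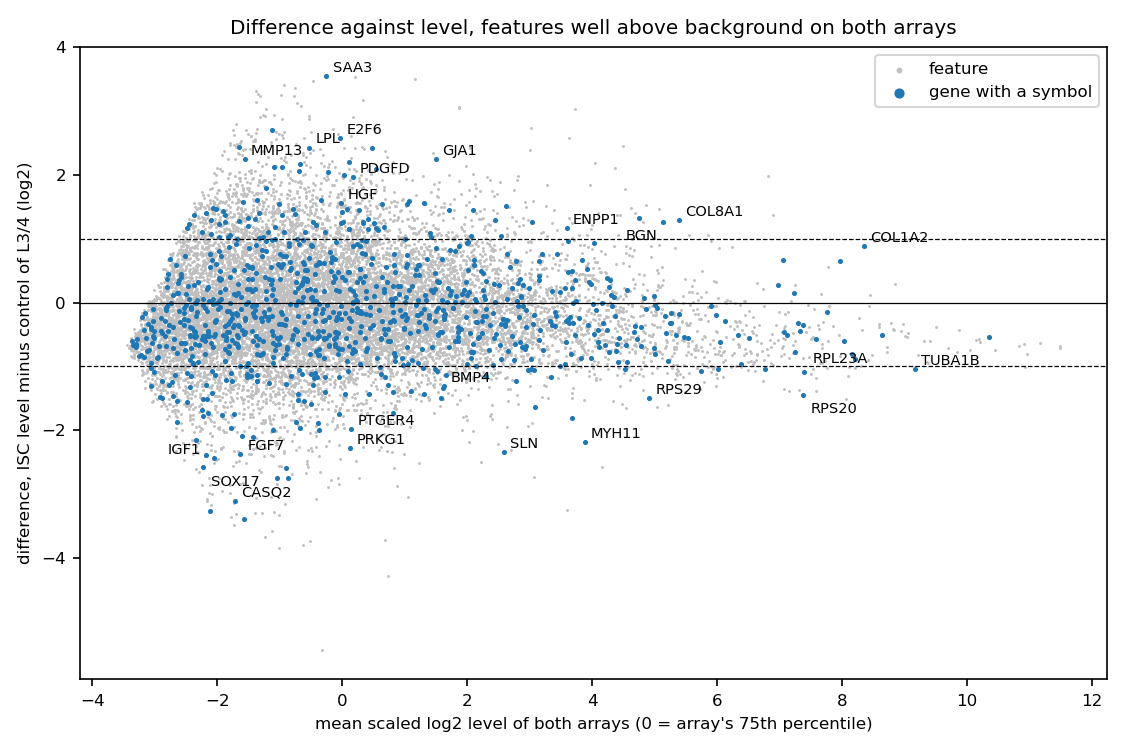
Log2 difference, ISC level minus control of L3/4 (vertical axis), against the mean scaled log2 level of both arrays (horizontal axis) for the 13728 features well above background on both. Grey points are all features, blue points are the 965 named genes, and dashed lines mark 2-fold; COL1A2, COL8A1 and BGN stand out upwards among genes of high level, and RPS20, RPL23A and TUBA1B downwards.

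The array of the control of L3/4 lay at an end of the 4 arrays for most of these features. Of 1221 features called higher that were well above background on all 4 arrays, the control of L3/4 was the lowest array for 1077 (88.2%), while the ISC level was the highest for 695 (56.9%). Of 1164 called lower, the control of L3/4 was the highest for 988 (84.9%) and the ISC level the lowest for 637 (54.7%). Over all 12741 features on all 4 arrays, that control was lowest for 24.8% and highest for 38.5%, and the ISC level highest for 19.0% and lowest for 22.6%. Choosing features by the difference between these arrays itself favours both at the ends. Against the other control, 159 of 1229 features called higher and 187 of 1258 called lower were again at least 2-fold apart in the same direction. Among named genes these were 14 of 86 and 17 of 97. Over all features, 3.54% were past 2-fold upwards and 5.03% downwards when the ISC level was set against the other control. The fused levels differed from that control by 2-fold or more upwards for 7.84% and downwards for 9.14% of features.

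Among structural matrix genes, 3 collagen genes could be named and measured, with 1 at least 2-fold higher, 0 lower and a median of 0.89. With cyclic loess 2 were, COL8A1 and COL1A2, and the median was 1.55. COL8A1, a chain of the short network-forming collagen VIII, stood at 6.03 at the ISC level, 4.73 in the control of L3/4, 3.16 at the fused levels and 4.84 in the other control, a difference of 1.30 ± 0.20. The ISC level was the highest of the 4 arrays, both controls lay close together and the fused levels were lowest. COL1A2, a chain of type I collagen, the main fibrillar collagen of ligament, lay at 8.79 at the ISC level, 7.90 in the control of L3/4, 7.80 at the fused levels and 8.42 in the other control. Its difference of 0.89 ± 0.20 was under 2-fold with this probe, and its 11 probes ran from 0.73 to 1.49. The same probe passed 2-fold with cyclic loess (1.55), quantile normalization (1.39), normexp (1.25) and the authors' scaling (1.01). The ISC level was again the highest array, followed by the other control. COL2A1, the fibrillar collagen of cartilage, was at −0.080, with 5 probes between −0.080 and 1.01. P4HB, a subunit of the enzyme that hydroxylates collagen prolines, was at −0.40.

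Proteoglycan genes did not move together. BGN, which encodes biglycan, a collagen-binding small proteoglycan, was the 1 of 5 measured genes past 2-fold upwards, and 0 were past it downwards. Its levels were 5.77 at the ISC level, 4.503 in the control of L3/4, 3.55 at the fused levels and 5.63 in the other control, a difference of 1.27 ± 0.20, with 2 probes at 0.47 and 1.27. The fused levels were lowest here and the other control was close to the ISC level. DCN (decorin), LUM (lumican) and OGN (osteoglycin), relatives of biglycan, were at −0.23, −0.57 and −0.60, and SRGN, a proteoglycan of blood cell granules, at −0.87. The median of the list was −0.57, and 0.03 after cyclic loess normalization. MGP, an inhibitor of calcification abundant in connective tissue, had levels of 8.29 at the ISC level and 7.63 in its control, a difference of 0.66, which was 1.24 with cyclic loess, 1.14 with quantile normalization and 1.05 with normexp. SPP1, the matrix protein osteopontin, differed by −0.31.

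Genes of matrix breakdown were higher or under 2-fold. Of 9 measured proteases and inhibitors 3 reached 2-fold upwards and 0 downwards, with a median of 0.56, and 0.37 against the other control. MMP13, a collagenase that cuts fibrillar collagen, was at −0.43 at the ISC level, −2.69 in the control of L3/4, −0.33 at the fused levels and −0.88 in the other control. This made a difference of 2.25 ± 0.30, or 4.77-fold, in which the control of L3/4 was the low array and the remaining arrays lay near one another. The collagen-degrading cysteine protease gene CTSK, known from osteoclasts, stood at 3.68 at the ISC level, 2.41 in the control of L3/4, 2.77 at the fused levels and 3.31 in the other control, a difference of 1.27 ± 0.20 with 5 probes from 1.27 to 1.39. TIMP1, an inhibitor of metalloproteases, was at 3.07 at the ISC level, 2.02 in the control of L3/4, 1.77 at the fused levels and 3.03 in the other control, a difference of 1.05 ± 0.20, so the ISC level and the other control were alike and both were above the remaining arrays. CTSK was also the 1 of 3 measured bone cell markers past 2-fold, with 0 lower and a median of −0.14. TIMP3, an inhibitor bound to the matrix, was at 0.67, the plasminogen activator gene PLAU at 0.56, and the gelatinase gene MMP2 at 0.48, with 6 probes from 0.48 to 1.28. MMP3 and MMP1, a stromelysin and a collagenase, were at −0.44 and −0.46. TIMP4, below the background mark in the control of L3/4 alone, was at least 4.22-fold higher. MMP9, a gelatinase below that mark in both controls and named after its value was seen, was at least 2.22-fold higher.

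Of 7 genes of sulphation and glycosaminoglycan synthesis that could be named, 7 had a probe above the background mark on the array of the ISC level, 4 in the control of L3/4 and 5 on each of the remaining arrays. Over all features with such a probe at the ISC level, 14.3% had none in the control of L3/4. PAPSS2, which makes the sulphate donor used for cartilage and ligament proteoglycans, was at 0.34 at the ISC level, −1.72 in the control of L3/4, 0.46 at the fused levels and −0.25 in the other control, a difference of 2.06 ± 0.24, and its 5 probes ran from 1.74 to 2.06. The control of L3/4 was the low array. UGDH, which makes the glucuronic acid of these chains, was at 0.99 and TNFAIP6, a hyaluronan-binding protein, at −0.13. The brighter probe of PAPSS1, a relative of PAPSS2, was below the background mark in the control of L3/4, and its other probe, measured on both arrays, was at 0.39. EXT1, a heparan sulphate polymerase below that mark in the control of L3/4, was at least 2.87-fold higher. The heparan sulphate proteoglycan gene GPC6 was at least 6.35-fold higher. Against the other control, where they were measured, EXT1 was at −0.21 and GPC6 at 0.29.

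Of the tendon, cartilage and bone genes, 1 of 6 measured was at least 2-fold higher and 0 were lower, with a median of −0.08. PTHLH, a hormone-like signal that holds back cartilage maturation, was at 1.26 at the ISC level, 0.073 in the control of L3/4, 0.065 at the fused levels and 1.66 in the other control, a difference of 1.19 ± 0.21. It was higher still in the other control, so its sign turned there (−0.40). Its receptor gene PTH1R was at −0.14, TNMD, tenomodulin, made by cells of tendon and ligament, at −0.092 and CNMD (chondromodulin) at −0.086. ENPP1, which makes the calcification inhibitor pyrophosphate and was named after its value was seen, stood at 4.17 at the ISC level, 3.01 in the control of L3/4, 3.08 at the fused levels and 3.69 in the other control, a difference of 1.17 ± 0.20 shared by its 2 probes (1.02 and 1.17). The ISC level was the highest array for ENPP1. All 5 markers of ligament and tendon fibroblasts that could be named were measured. Of these, 0 were at least 2-fold apart, and the median was −0.23, which was 0.03 after cyclic loess.

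**Figure D2:**
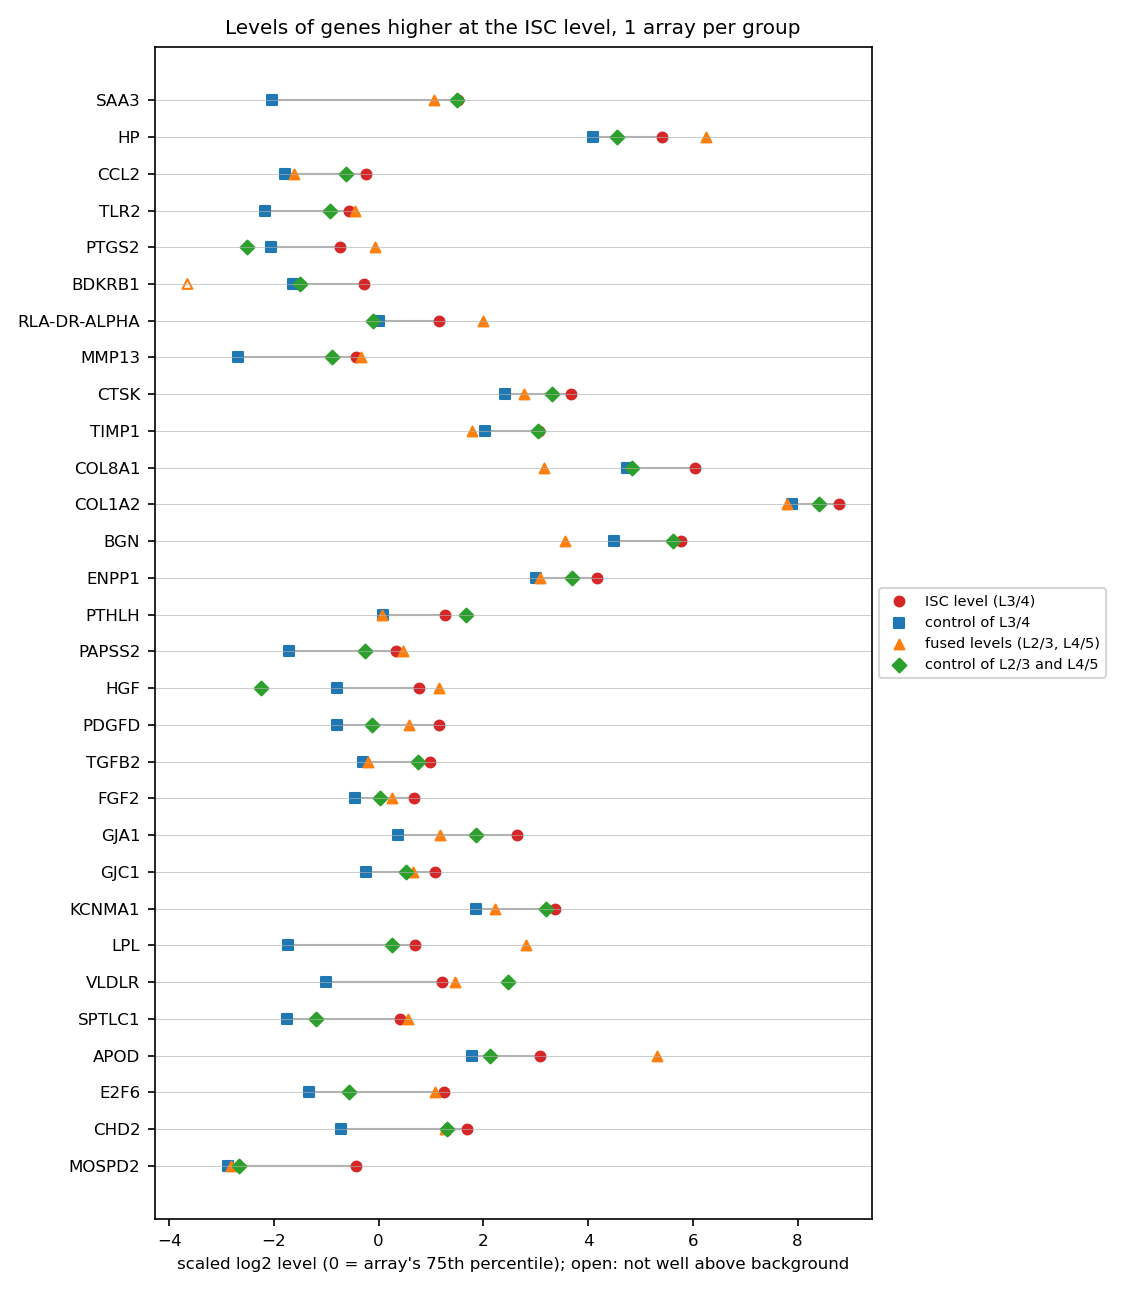
Scaled log2 levels (horizontal axis, 0 is the array's 75th percentile) on all 4 arrays for 30 named genes with higher signal at the ISC level, 1 array per group. Red circles are the ISC level and blue squares the control of L3/4, joined by a grey line, orange triangles are the fused levels and green diamonds the other control; an open symbol is not well above background. For most genes, such as SAA3 and MMP13, the blue square is the left-most symbol. For COL8A1, MOSPD2 and BDKRB1 the green diamond lies close to the blue square, with both to the left of the red circle.

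Growth factor genes went both ways. In the FGF, IGF, HGF, PDGF and EGF list, 4 of 7 measured were higher by 2-fold or more and 2 lower, with a median of 1.11, and 0.65 against the other control. HGF, the ligand of the MET receptor and a scatter and survival factor, was at 0.76 at the ISC level, −0.79 in the control of L3/4, 1.15 at the fused levels and −2.25 in the other control, a difference of 1.56 ± 0.21 with 2 probes at 0.97 and 1.56. Both controls lay below the ISC level, the other control by 3.01. PDGFD, a ligand that drives fibroblast and smooth muscle growth, was at 1.16 at the ISC level, −0.80 in the control of L3/4, 0.59 at the fused levels and −0.12 in the other control, a difference of 1.96 ± 0.22 and of 1.28 against the other control, and no array was higher than the ISC level. FGF2, a mitogen of fibroblasts and endothelium stored in the matrix, was at 0.68 at the ISC level, −0.46 in the control of L3/4, 0.26 at the fused levels and 0.029 in the other control, a difference of 1.15 ± 0.21. FGF1, from the same family, was well above background at the ISC level but not in the control of L3/4 and was at least 3.77-fold higher. The receptor gene FGFR2 was at 1.11 ± 0.24 but at −1.500 against the other control, which was its highest array at 0.87. GHR, the growth hormone receptor, was at 0.32.

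The lower members of that list were ligands. IGF1, the growth factor that mediates much of growth hormone's action on skeletal tissue, was at −3.27 at the ISC level, −0.84 in the control of L3/4, −3.09 at the fused levels and −3.95 in the other control (not well above background), a difference of −2.43 ± 0.29 with 2 probes at −2.98 and −2.43. FGF7, a fibroblast product that acts on epithelium, stood at −2.83 at the ISC level, −0.46 in the control of L3/4, −2.36 at the fused levels and −2.55 in the other control, a difference of −2.37 ± 0.27, and its 6 probes ran from −2.93 to −1.88. For both genes the control of L3/4 was the high array and the other 3 arrays lay together near the bottom of the measured range. In the TGF-beta and BMP list 1 of 5 measured was higher by 2-fold or more, 1 was lower, and the median was 0.21. TGFB2, a ligand that stimulates matrix synthesis, was at 0.97 at the ISC level, −0.29 in the control of L3/4, −0.20 at the fused levels and 0.75 in the other control, a difference of 1.27 ± 0.21 with 3 probes from 1.27 to 1.48. BMP4, a bone morphogenetic protein, was at 0.98 at the ISC level, 2.29 in the control of L3/4, 1.93 at the fused levels and 1.38 in the other control, a difference of −1.31 ± 0.20 with 5 probes from −1.39 to −1.30. The control of L3/4 was lowest for TGFB2 and highest for BMP4. The receptor gene TGFBR2 was at 0.56 and BMP2 at −0.35.

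Other signalling genes among the largest differences were named from the list of 25 highest and 25 lowest. CAMK2D, a calcium- and calmodulin-dependent kinase, was higher by 2.12 ± 0.24 and CSNK2A1, a catalytic subunit of casein kinase 2, by 1.58 ± 0.21. PRKCB, a protein kinase C of leukocytes and other cells, was lower at −2.58 ± 0.23 and PRKG1, the cGMP-dependent kinase that relaxes smooth muscle, at −2.28 ± 0.21. In the kinase and phosphatase list 1 of 15 measured was higher by 2-fold or more and 2 were lower, with a median of 0.00. PRKG1 stood at −1.01 at the ISC level, 1.27 in the control of L3/4, −1.08 at the fused levels and −0.79 in the other control, with the control of L3/4 alone at the top. PRKCB stood at −2.19 at the ISC level, 0.39 in the control of L3/4, 0.84 at the fused levels and −2.68 in the other control, so the ISC level and the other control were low together. WNT11, a Wnt ligand, SOCS2, a brake on growth hormone signalling, and RGS4, a brake on G-protein signalling, were at 1.28, 1.22 and 1.46, named after their values were seen. With normexp they were at 0.0072, 0.61 and 0.60, all under 2-fold. HHIP, which binds and damps hedgehog ligands, was at 1.55, also named after its value was seen.

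Acute-phase genes held the highest difference of any named gene measured on both arrays. SAA3, a serum amyloid A that local tissues make in inflammation, stood at 1.52 at the ISC level, −2.03 in the control of L3/4, 1.05 at the fused levels and 1.49 in the other control, a difference of 3.55 ± 0.25 or 11.7-fold. The control of L3/4 was alone at the bottom, and against the other control the difference was 0.029. HP, haptoglobin, which binds free haemoglobin, was at 5.41 at the ISC level, 4.09 in the control of L3/4, 6.25 at the fused levels and 4.55 in the other control, a difference of 1.32 ± 0.20, with 2 probes at 1.08 and 1.32. CD59, a membrane inhibitor of complement, was at 1.38. In all, 3 of 11 measured acute-phase and complement genes were at least 2-fold higher and 2 lower, with a median of 0.03, whose sign turned with cyclic loess (−0.03) and quantile normalization (−0.01). The lower members were ALB, albumin, at −2.14 ± 0.31 and LBP, a lipopolysaccharide-binding protein, at −1.48 ± 0.39, both at low levels.

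Most cytokine genes were under 2-fold, with 1 of 14 measured at least 2-fold higher, 3 lower and a median of −0.40. CCL2, which attracts monocytes, was at −0.24 at the ISC level, −1.78 in the control of L3/4, −1.62 at the fused levels and −0.62 in the other control, a difference of 1.54 ± 0.24 with 2 probes at 1.54 and 1.88. The ISC level was the highest array. LIF, a cytokine of the interleukin-6 family, was lower at −1.77 ± 0.30, TNFSF13B, a survival factor of B cells, at −1.55 ± 0.30 and IL1A, an alarm cytokine, at −1.49 ± 0.36. IL1A was at a low level and was not well above background in the other control. IL1B, IL18 and CXCL8, mediators of innate inflammation, were at −0.38, −0.42 and 0.40. IL6 and TNF were not well above background on either array. TLR2, a receptor for bacterial lipoproteins and matrix fragments, was at −0.57 at the ISC level, −2.17 in the control of L3/4, −0.45 at the fused levels and −0.93 in the other control, a difference of 1.60 ± 0.26, with the control of L3/4 as the low array. TLR4 was well above background on every array but that of the control of L3/4, and at the ISC level was at least 2.70-fold higher, named after its value was seen.

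Of 11 measured genes of prostaglandin, kinin and vasoactive signalling, 2 were at least 2-fold higher and 1 lower, with a median of −0.17. PTGS2, the inducible cyclooxygenase, was at −0.74 at the ISC level, −2.05 in the control of L3/4, −0.075 at the fused levels and −2.52 in the other control, a difference of 1.31 ± 0.25, and of 1.78 against the other control. Both controls were below the ISC and fused levels, but the second PTGS2 probe was at −0.38. BDKRB1, the bradykinin receptor that appears in injured tissue, was at −0.27 at the ISC level, −1.64 in the control of L3/4, −3.65 at the fused levels (not well above background) and −1.505 in the other control, a difference of 1.37 ± 0.23 and of 1.23 against the other control, with the ISC level as the highest array. PTGER4, a prostaglandin E2 receptor, was lower, at −0.84 at the ISC level, 1.14 in the control of L3/4, 0.97 at the fused levels and 0.030 in the other control, a difference of −1.98 ± 0.21 with 3 probes from −2.81 to −0.85. PTGDS, a prostaglandin D synthase named after its value was seen, was at −1.16. PLA2G4A, the phospholipase that releases arachidonic acid for these pathways, was at least 3.95-fold higher. PTGS1, the constitutive cyclooxygenase, and PTGER2 and PTGER3, further prostaglandin E2 receptors, were at −0.17, −0.54 and −0.14.

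In the list of mechanosensing, gap junction and adhesion genes, GJA1 had the largest difference. GJA1, connexin 43, the main gap junction protein of fibroblasts, was at 2.63 at the ISC level, 0.38 in the control of L3/4, 1.18 at the fused levels and 1.85 in the other control, a difference of 2.25 ± 0.21 or 4.77-fold, with 2 probes at 2.25 and 3.54. Of the 4 arrays the ISC level was highest and the control of L3/4 lowest. GJC1, connexin 45, was at 1.08 at the ISC level, −0.24 in the control of L3/4, 0.65 at the fused levels and 0.52 in the other control, a difference of 1.32 ± 0.21 with 5 probes from 1.08 to 1.54, in the same order at both ends. The connexin genes GJA5 and GJB1 were at −0.34 and −0.78. TRPC1, a cation channel studied in stretch responses, was at −1.15 ± 0.22, but its 4 probes ran from −1.15 to 0.28. ITGB1 and ITGB3, integrin subunits that bind matrix, were at 0.28 and −0.57. In this list 2 of 7 measured were higher by 2-fold or more and 1 lower, with a median of −0.34. DAG1, dystroglycan, which ties the cell to laminin, was at 1.45, named after its value was seen.

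Of 34 measured ion channel and transporter genes, 3 were at least 2-fold higher and 2 lower, with a median of −0.17. KCNMA1, the pore of the large-conductance calcium-activated potassium channel, was at 3.37 at the ISC level, 1.86 in the control of L3/4, 2.23 at the fused levels and 3.19 in the other control, a difference of 1.51 ± 0.20 with 2 probes at 1.45 and 1.51. Its smooth muscle subunit gene KCNMB1 was at −0.17. SLC6A8, the creatine transporter, was at 2.09 ± 0.21 and CACNA2D1, a calcium channel subunit, at 1.02 ± 0.20, while CACNB3, another such subunit, was at −1.29 ± 0.21. For KCNMA1 and SLC6A8 the ISC level was the highest array with the other control next, and CACNA2D1 was highest in the other control. SLC5A2, a sodium-glucose transporter, and SLC12A4, a potassium-chloride cotransporter, were at least 9.71-fold and at least 4.55-fold higher, since both were below background in the control of L3/4 alone.

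Lipid genes were higher in 4 of 11 measured members and lower in 1, with a median of 0.71, and 0.43 against the other control. LPL, the lipase that frees fatty acids from lipoproteins, was at 0.69 at the ISC level, −1.74 in the control of L3/4, 2.81 at the fused levels and 0.26 in the other control, a difference of 2.43 ± 0.24 or 5.38-fold. The fused levels were highest and the control of L3/4 lowest. VLDLR, a lipoprotein receptor, was at 1.20 at the ISC level, −0.9997 in the control of L3/4, 1.45 at the fused levels and 2.47 in the other control, a difference of 2.20 ± 0.21 with 3 probes from 1.83 to 2.25, and its sign turned against the other control (−1.27). SPTLC1, a subunit of the first enzyme of sphingolipid synthesis, was at 0.41 at the ISC level, −1.75 in the control of L3/4, 0.56 at the fused levels and −1.20 in the other control, a difference of 2.16 ± 0.23 and of 1.61 against the other control. APOD, a lipocalin that carries small lipids, was at 3.09 at the ISC level, 1.79 in the control of L3/4, 5.32 at the fused levels and 2.13 in the other control, a difference of 1.30 ± 0.20. Both controls were below the ISC and fused levels for SPTLC1 and APOD. PPARG, the master regulator of fat cells, was lower, at −1.37 at the ISC level, 0.63 in the control of L3/4, 0.40 at the fused levels and −2.23 in the other control, a difference of −1.996 ± 0.21, whose sign turned against the other control (0.85). NR1H3, a nuclear receptor for oxysterols named after its value was seen, was at −1.39. Of 4 measured fat cell markers, 1 (LPL) was higher and 1 (PPARG) lower, while ADIPOQ was at 0.94 and LEP at 0.042. The summed level of the fat cell markers was 2.97 at the ISC level, 2.31 in the control of L3/4, 4.32 at the fused levels and 2.60 in the other control, and its part in the lipid genes was not tested.

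The contractile genes that mark smooth muscle and myofibroblasts were lower by 2-fold or more in 3 of 6 measured cases and higher in 0, with a median of −0.89 and of −0.91 against the other control. MYH11, the myosin heavy chain of smooth muscle, was at 2.79 at the ISC level, 4.97 in the control of L3/4, 3.63 at the fused levels and 3.70 in the other control, a difference of −2.19 ± 0.20 or 4.56-fold. The ISC level was the lowest of the 4 arrays and the control of L3/4 the highest, with the remaining arrays alike. ACTA2, smooth muscle actin, also a marker of myofibroblasts, was at 2.49 at the ISC level, 3.54 in the control of L3/4, 3.14 at the fused levels and 2.92 in the other control, a difference of −1.04 ± 0.20, in the same order at both ends. ACTA2 fell short of 2-fold with cyclic loess (−0.86), quantile normalization (−0.88), the authors' scaling (−0.92) and normexp (−0.60), which left 2 of 6 lower under each of these but normexp, which left 1. TPM2, a tropomyosin of several muscle types, was at −1.16 ± 0.21, TPM1 at −0.74 and CALD1, caldesmon, at −0.69. DES, desmin, was at 0.28. Against the other control ACTA2 was at −0.42, MYH11 at −0.92 and CALD1 at 0.28. DES, TPM1 and TPM2 are also skeletal muscle markers. The summed level of the skeletal muscle markers was 9.92 in the other control and 5.16 at the ISC level. The part of skeletal muscle in the median against the other control was not tested.

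Endothelial markers were mixed, with 2 of 5 measured at least 2-fold lower, 1 higher and a median of −0.72. SOX17, a transcription factor of arterial endothelium, was at −3.52 at the ISC level, −0.95 in the control of L3/4, −2.47 at the fused levels and −2.43 in the other control, a difference of −2.57 ± 0.33 and of −1.09 against the other control, with the ISC level lowest. KDR, the main VEGF receptor, was at −1.32 ± 0.29, SELE, an adhesion molecule of activated vessels, at −0.72 and NOS3, the endothelial nitric oxide synthase, at −0.081. THBD, thrombomodulin, was higher, at 0.95 at the ISC level, −0.29 in the control of L3/4, 1.74 at the fused levels and 0.71 in the other control, a difference of 1.24 ± 0.093. The wider angiogenesis list had 1 of 10 measured higher and 2 lower, with a median of −0.14. The summed level of the endothelial markers was 1.45 at the ISC level and 1.32 in the control of L3/4, against 2.13 at the fused levels and 1.30 in the other control, and that of the smooth muscle markers 4.95 against 6.20, with 5.42 and 6.05 in the same order. The part of vessel content in the contractile genes was not tested. The sphingosine receptor gene S1PR1, named after its value was seen, was at 1.45.

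Skeletal muscle markers moved in both directions against the control of L3/4. Of 19 measured, 1 was at least 2-fold higher and 5 lower, with a median of −0.34. A further 4 were well above background at the ISC level only, among them MYOZ1, a Z-disc protein, at least 3.02-fold higher, RYR1, the calcium release channel, at least 2.43-fold and PYGM, muscle glycogen phosphorylase, at least 1.95-fold, and 1 was so in the control of L3/4 only. CASQ2, the calcium-binding protein of cardiac and slow muscle stores, was at −3.27 at the ISC level, −0.16 in the control of L3/4, −2.62 at the fused levels and −0.65 in the other control, a difference of −3.11 ± 0.28 and of −2.62 against the other control. SLN, sarcolipin, a regulator of the muscle calcium pump, was at 1.41 at the ISC level, 3.75 in the control of L3/4, 1.57 at the fused levels and 6.44 in the other control, a difference of −2.33 ± 0.20 with 5 probes from −3.43 to −1.995. Both genes were low at the ISC and fused levels and high in both controls. CASQ1 and ATP2A1, the fast-muscle calsequestrin and calcium pump, were at −0.29 and −0.80. JPH1, a protein that joins muscle membranes, was at −1.54 ± 0.32 and ENO3, the muscle enolase, at −1.14 ± 0.29. MYL1, a fast myosin light chain, was the higher member at 1.25 ± 0.21, with levels of 0.61 at the ISC level, −0.64 in the control of L3/4, −1.51 at the fused levels and 5.14 in the other control. Fast fibre genes TNNC2, MYH1 and MYL11 were at −0.012, −0.34 and 0.52 against the control of L3/4.

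The other control held far more muscle signal. The summed level of the skeletal muscle markers was 5.16 at the ISC level, 5.68 in the control of L3/4, 4.53 at the fused levels and 9.92 in the other control, and 23, 20, 19 and 24 of 26 named markers were well above background in that order. Against the other control their median difference was −4.50, and that of the glycolysis genes, many of which are muscle isoforms, was −1.59. Against the control of L3/4 the glycolysis list had 0 of 15 measured genes past 2-fold upwards, 2 downwards (ENO3, and GYS1, a glycogen synthase, at −1.12) and a median of −0.25. PGM1, a phosphoglucomutase named after its value was seen, was at −1.12. The part of adherent muscle in these differences was not tested.

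**Figure D3:**
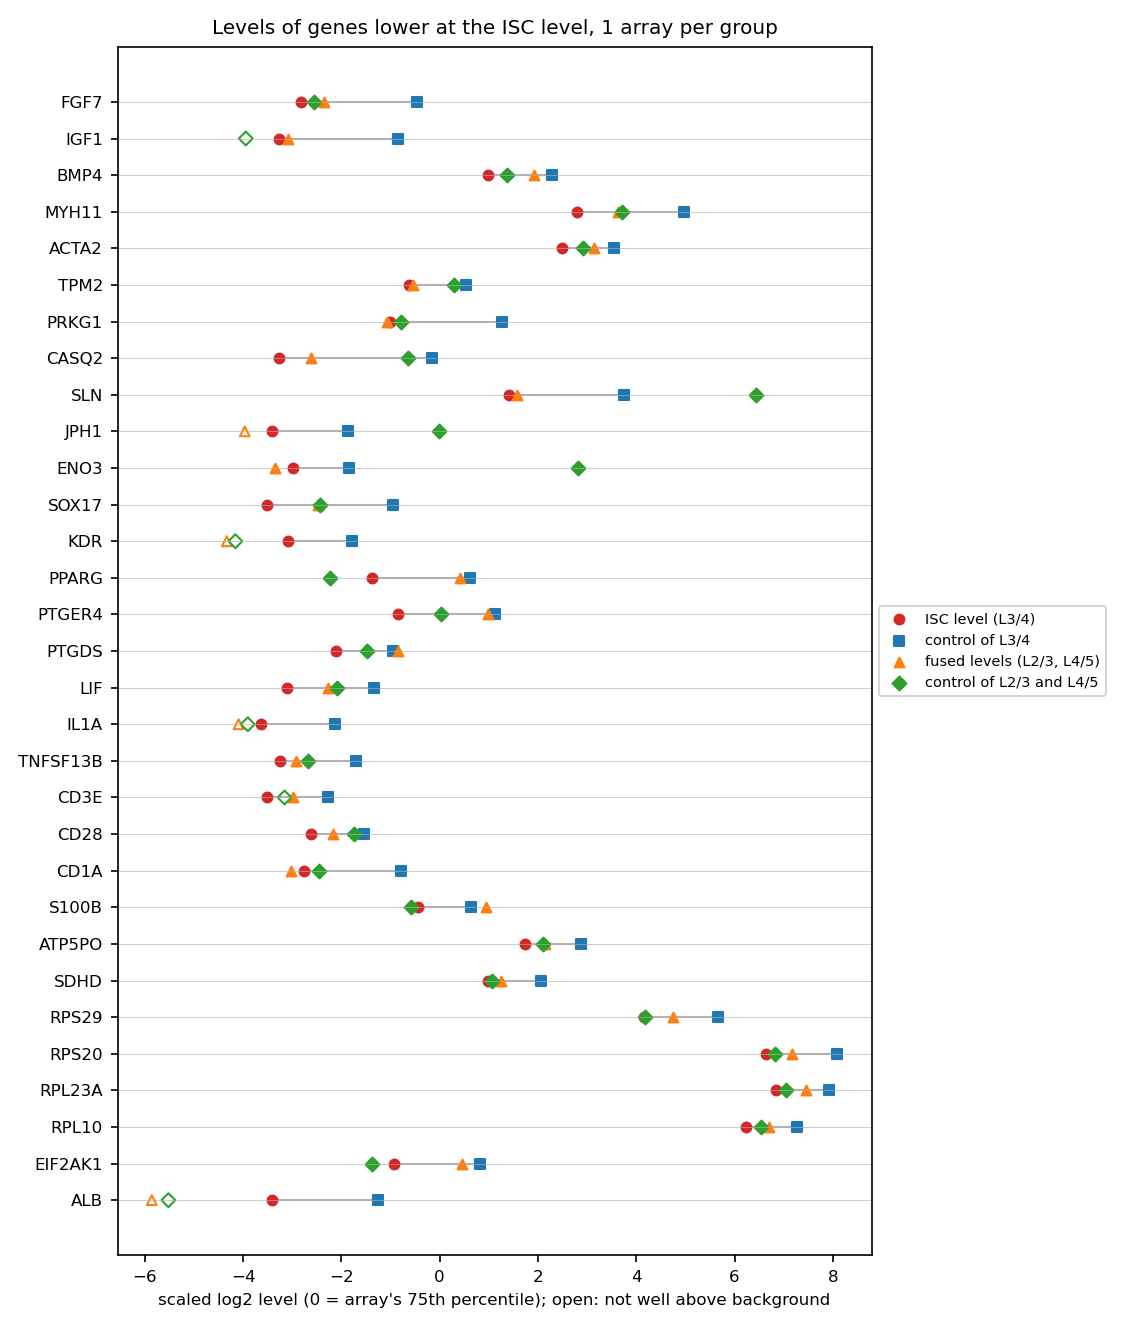
Scaled log2 levels (horizontal axis, 0 is the array's 75th percentile) on all 4 arrays for named genes with lower signal at the ISC level, 1 array per group, with the symbols of the plot of higher genes; open symbols are not well above background. The blue square of the control of L3/4 is the right-most symbol for most genes, whereas for SLN, JPH1 and ENO3 the green diamond of the other control lies further right.

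Among genes of ribosomal proteins and translation, 4 of 11 measured were lower by 2-fold or more and 0 higher, with a median of −0.68. With cyclic loess and with quantile normalization 1 of 11 was lower, and the medians were −0.34 and −0.36. The highest member was EIF2S2, a subunit of an initiation factor, at 0.68. RPL10 and RPL23A, proteins of the large ribosomal subunit, were at −1.04 ± 0.20 and −1.08 ± 0.20, and EEF1D, a subunit of the elongation factor complex, at −1.06 ± 0.20. These were −0.53, −0.51 and −0.65 with cyclic loess. EIF2AK1, a kinase that halts translation when haem is short, was at −1.75 ± 0.21, with 7 probes that disagreed, from −2.06 to 1.56. The 9 genes with an RPL or RPS symbol, gathered after their values were seen, were all below 0, 4 of them at least 2-fold, with a median of −0.96 and of −0.20 against the other control. RPS20, of the small subunit, was at 6.65 at the ISC level, 8.09 in the control of L3/4, 7.17 at the fused levels and 6.83 in the other control, a difference of −1.44 ± 0.20, and its 10 probes ran from −1.45 to −1.23. RPS29 was at −1.49 ± 0.20 with 5 probes from −1.49 to −1.34. The control of L3/4 was the highest array for both. These are among the brightest probes, and the median of the 9 genes was −0.49 with cyclic loess and −0.52 with quantile normalization, under each of which 1 of 9 was at least 2-fold lower. RPS20 was at −0.88 and −0.98 in that order. NPM1, a nucleolar protein, and TUBA1B, a tubulin, both bright and named after their values were seen, were at −1.04 and −1.03. They were at −0.60 and −0.30 with cyclic loess and at −0.56 and −0.48 with quantile normalization.

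Of the 4 measured mitochondrial genes 2 were at least 2-fold lower and 0 higher, with a median of −0.81 and of −0.35 against the other control. ATP5PO, a subunit of ATP synthase, was at 1.73 at the ISC level, 2.88 in the control of L3/4, 2.14 at the fused levels and 2.11 in the other control, a difference of −1.15 ± 0.20 with 5 probes from −1.24 to −1.15. SDHD, a subunit of succinate dehydrogenase, was at 0.99 at the ISC level, 2.06 in the control of L3/4, 1.24 at the fused levels and 1.06 in the other control, a difference of −1.07 ± 0.20. For both, the control of L3/4 was the high array and the ISC level the lowest. SDHD was just under 2-fold with quantile normalization (−0.996) and was at −0.94 with the authors' scaling. COX6A1 and SLC25A4, a cytochrome oxidase subunit and the ATP carrier, were at −0.34 and −0.55.

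Nuclear and cell cycle genes were higher in 4 of 9 measured members and lower in 1, with a median of 0.90 and of 0.39 against the other control. E2F6, a repressor of the E2F family, was at 1.25 at the ISC level, −1.32 in the control of L3/4, 1.07 at the fused levels and −0.56 in the other control, a difference of 2.58 ± 0.22 and of 1.81 against the other control. CHD2, a chromatin remodeller, was at 2.42 ± 0.21, POU5F1, a pluripotency factor, at 1.37 ± 0.35 and CCNA2, cyclin A2, which drives S phase, at 1.25 ± 0.21 with 3 probes from 1.11 to 1.25. TACC3, a spindle protein, was lower at −1.96 ± 0.22. JUN, a stress-induced transcription factor, and HMGB2, a chromatin protein of dividing cells, were at 0.82 and −0.64. BRK1, a subunit of the WAVE complex that branches actin, was at 2.70 ± 0.28 with 4 probes from 2.63 to 3.21. It was the only 1 of 9 measured cytoskeletal genes at least 2-fold higher, with 1 lower and a median of −0.35 that turned to 0.12 with cyclic loess, 0.10 with quantile normalization and 0.02 with normexp.

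Of 5 measured T and B cell markers 2 were at least 2-fold lower and 0 higher, CD3E of the T cell receptor at −1.24 ± 0.35 and CD28, a co-stimulator, at −1.07 ± 0.26, with a median of −0.66. Their summed level was −0.13 at the ISC level, 0.59 in the control of L3/4, 0.10 at the fused levels and 0.28 in the other control. Of 7 measured neutrophil and marrow markers 1 was lower, S100A9, a calprotectin subunit, at −1.13 ± 0.23, and the median was −0.85, with CXCR2, a chemokine receptor, at 0.006. Their summed level was 3.05, 3.86, 8.30 and 2.77 in that order, so the fused levels stood far above both arrays compared. Of 10 measured antigen presentation and lymphocyte genes 1 was higher and 3 lower, with a median of −0.59. CD1A and CD1B, which present lipids to T cells, were at −1.96 and −1.23, CD1A named by its rank. RLA-DR-ALPHA, a class II antigen-presenting chain, went the other way, at 1.14 at the ISC level, 0.004 in the control of L3/4, 1.996 at the fused levels and −0.10 in the other control, a difference of 1.14 ± 0.21 and of 1.25 against the other control. RLA-DMB, a chaperone of peptide loading, was at least 6.46-fold higher, while its partner RLA-DMA was at −0.30. CD14, a marker of macrophages and monocytes, was at 0.71. The haemoglobin genes HBA and HBB2, markers of red cells, were at −0.89 and −0.80 against the control of L3/4 and at 0.70 and 0.65 against the other control. Against the control of L3/4 they were at −0.24 and −0.15 with cyclic loess and at −0.42 and −0.36 with quantile normalization. The part of blood and leukocyte content in any of these results was not tested.

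S100B, a calcium-binding protein that marks Schwann cells, was at −0.44 at the ISC level, 0.64 in the control of L3/4, 0.94 at the fused levels and −0.59 in the other control, a difference of −1.07 ± 0.21 with 5 probes from −1.19 to −0.84. Against the other control it was at 0.16, so it was not lower there.

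Detoxification genes included 1 of 14 measured at least 2-fold higher and 3 lower, with a median of −0.38. The retinal dehydrogenase gene ALDH1A1 was at 1.11 ± 0.22, and the oxygenase genes FMO2, CYP2C16 and FMO5 were at −1.42 ± 0.27, −1.16 ± 0.21 and −1.11 ± 0.21. Several genes known from kidney and liver passed the background mark in the control of L3/4 but not at the ISC level. CYP4A7, a fatty acid hydroxylase, was at least 17.9-fold lower, DAO, D-amino acid oxidase, at least 13.0-fold and CALB1, a calcium-binding protein, at least 5.68-fold. Of 5 measured markers of kidney, liver and epithelium 1 was lower (ALB) and 0 higher, with a median of −0.54. Of further markers in this set, 2 (CYP4A7 and DAO) passed the background mark in the control of L3/4 only. The set also had 1 that passed it at the ISC level only, SLC5A2, at least 9.71-fold higher. CYP4A7 and CALB1 were not well above background on any of the remaining arrays. GCLC, which limits glutathione synthesis, was higher at 1.17 ± 0.21, 1 of 5 measured antioxidant genes with 0 lower and a median of 0.03. Heat shock genes (0 of 6 in either direction, median −0.32), proteasome genes (0 of 5, median −0.29) and apoptosis genes (0 of 3, median 0.08) were under 2-fold, with PDIA3, an endoplasmic reticulum foldase, highest among them at 0.67.

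**Figure D4:**
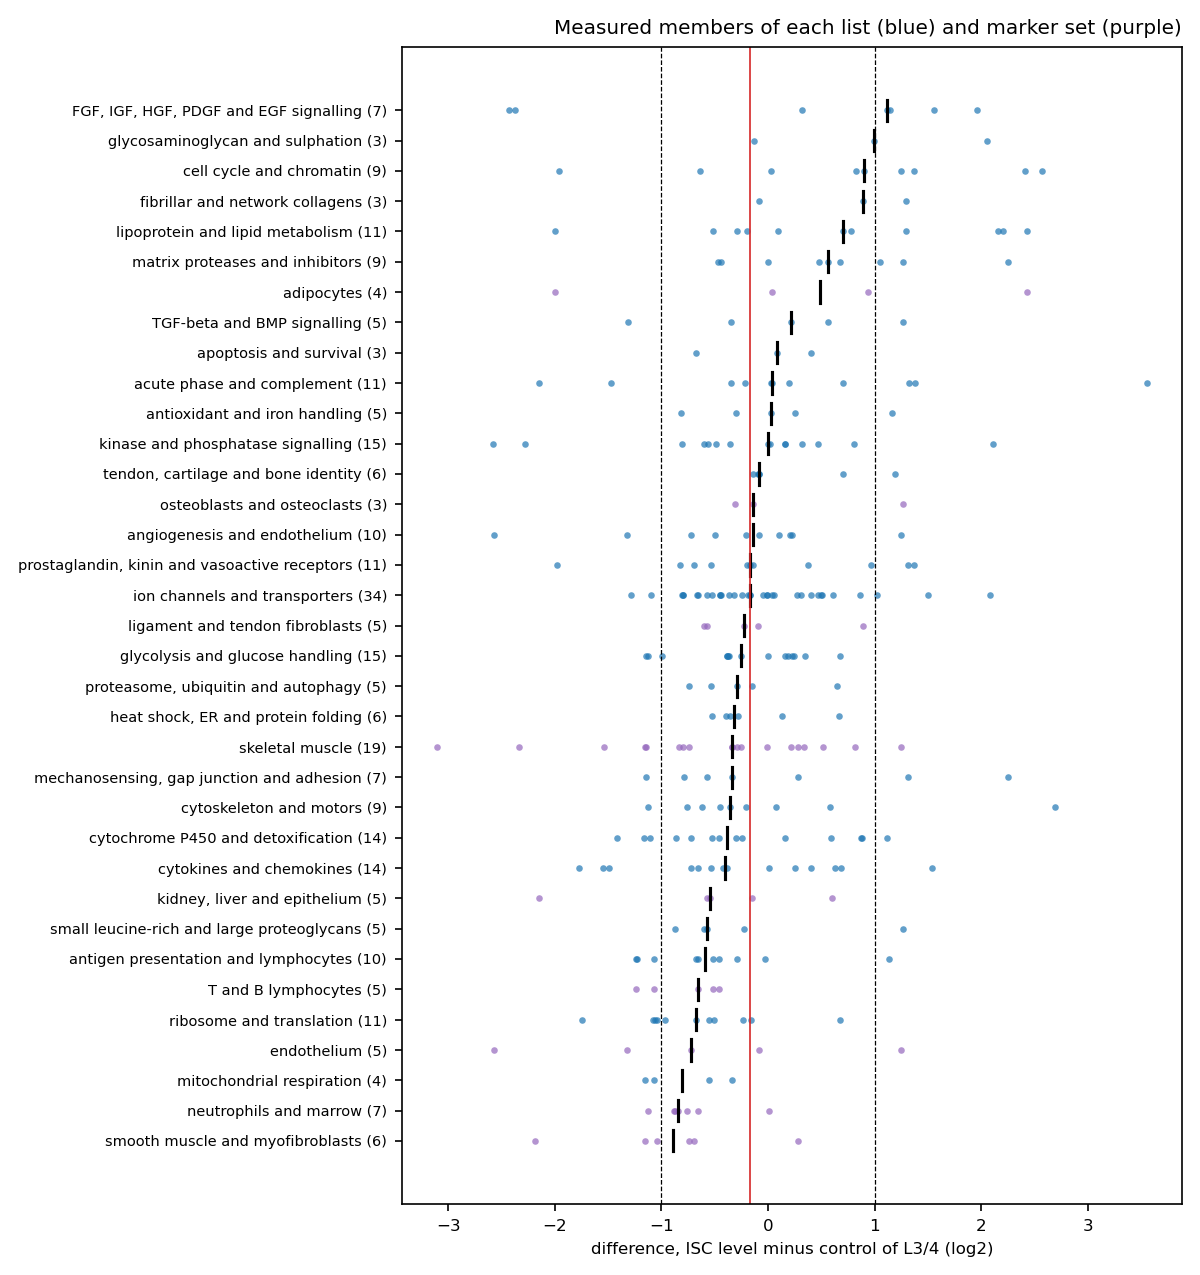
Log2 differences, ISC level minus control of L3/4 (horizontal axis), for the measured members of each gene list (blue) and cell type marker set (purple) that has 3 or more, with the number measured in brackets. Black bars are medians of a list, the red line the median of all features (−0.17) and dashed lines 2-fold; the growth factor list has the highest median, 1.11, with members at both ends, and the smooth muscle markers the lowest, −0.89.

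Several genes were at least 2-fold apart from each control array in the same direction. Higher than both controls were COL8A1, HGF, PDGFD, PTGS2, BDKRB1, RLA-DR-ALPHA, E2F6 and SPTLC1, given above, and also MOSPD2, a protein of organelle contact sites, at 2.43 and 2.23, STEAP2, a metalloreductase, at 2.002 and 1.73, and PNPLA8, a phospholipase, at 2.05 and 1.03. The 5 probes of PNPLA8 disagreed, from −0.85 to 2.05, and those of PTGS2 disagreed too, as given above. With normexp, COL8A1, E2F6, STEAP2 and PNPLA8 kept 2-fold against the control of L3/4. MOSPD2 was at 0.54 with it, BDKRB1 at 0.40 and PTGS2 at 0.28. HGF, PDGFD, RLA-DR-ALPHA and SPTLC1 were also under 2-fold with it, from 0.79 to 0.96. MOSPD2 stood at −0.44 at the ISC level, −2.87 in the control of L3/4, −2.82 at the fused levels and −2.66 in the other control, so the ISC level alone was high. Lower than both controls were CASQ2, SLN, JPH1, ENO3, GYS1, PGM1, SOX17, LIF and FMO2, given above, and also ITIH2, a chain that binds hyaluronan, at −2.11 and −1.73, ITIH6, of the same family, at −2.74 and −1.34, and GTF2A1L, a germ cell transcription factor, at −3.39 and −2.17. Of these lower genes, CASQ2, SLN, ITIH6 and GTF2A1L kept 2-fold against the control of L3/4 with normexp and the rest did not. The comparisons with each control share the array of the ISC level, and GTF2A1L was below the background mark at the fused levels. CASQ2, SLN, JPH1 and ENO3 are muscle markers, and the summed level of these markers was 9.92 in the other control against 5.16 at the ISC level. The glycolysis list, which holds ENO3 and GYS1, had a median of −1.59 against that control. The part of adherent muscle in these genes was not tested.

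The size of differences depended on the level of a feature. In the lowest of 10 equal bins of mean level the median difference was −0.40 and 1.02% of features were at least 2-fold higher against 14.7% lower. The lowest level well above background was −3.84 at the ISC level and −3.15 in the control of L3/4. In that bin the filter on both arrays thus left less room for higher than for lower features. In the brightest bin the median was −0.33, with 4.08% higher and 8.23% lower. In the bins between them the median lay from −0.18 to −0.04, and the share at least 2-fold higher peaked at 15.4% in the third bin. The difference between the controls, control of L3/4 minus the other control, ran the other way at both ends, with medians of 0.26 in the lowest and 0.27 in the brightest bin. The ISC level minus the other control had medians of −0.16 and −0.05 there. RPS20, RPL23A and RPL10 above lie in the brightest bin, and IL1A, LBP and CD3E in the lowest.

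**Figure D5:**
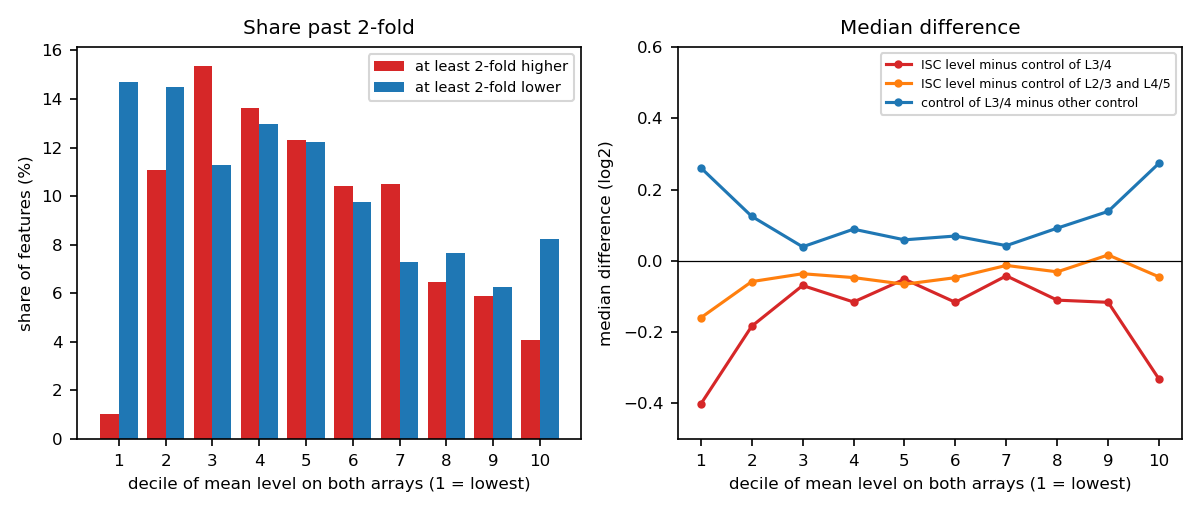
Left, share of features (%) past 2-fold, higher (red) or lower (blue), at the ISC level against the control of L3/4, by decile of mean level on both arrays, from 1 (lowest) to 10. Right, median difference (log2) in the same deciles for 3 pairs of arrays; the pairs that hold the control of L3/4 bend away from 0 at both ends, to −0.40 and −0.33 for the ISC level minus that control, while the ISC level minus the other control (orange) ends at −0.05.

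Beyond the measured pairs, 145 named genes were well above background at the ISC level only and 36 in the control of L3/4 only. Among all features these were 2290 and 575, by their representative probe, on arrays with 67.9% and 59.6% of probes well above background. Most calls also rested on a single probe. Of 855 called features with several measured probes, 457 had every probe at least 2-fold apart in the same direction and 90 included a probe with the sign reversed. Of 77 such named genes, 47 had every probe past 2-fold and in 4 a probe had the reverse sign. A further set of transcripts carries no gene name in the sources used here. Among those with several probes all past 2-fold, ENSOCUT00000005159 was higher by 3.53 with 4 probes from 2.90 to 3.61, and ENSOCUT00000011474 was lower at −3.15 with 5 probes from −4.15 to −3.15.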

How the data were processed

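Cy3-labelled cDNA of ligament total RNA was hybridised to 4 single-colour Agilent arrays, per the labels, on 1 slide, per the file headers. The submitters' processing notes name Agilent Feature Extraction 12.0.3. What it deposited per spot, per the file headers, is an intensity on a linear scale after background subtraction and detrending within the array. The authors' deposited value table, also intensities, equals these times 1 factor per array (medians 515.5, 442.3, 498.4 and 504.0 for the ISC level, its control, the fused levels and the other control). How the factors were chosen is unknown, and the table served as an alternative.

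Control spots were dropped, as were 3 to 7 flagged spots an array. None was saturated, and the mean was taken over spots of a probe. Log2 of the deposited signal minus the array's 75th percentile over 43603 probes is the level. RefSeq accessions without versions named 3792 probes (8.70%) and 1489 genes through a table of assembly mOryCun1.1, used for names only. The sources used here pair 24690 further probes with Ensembl transcripts but no gene. A gene is represented by its probe of highest mean level over the 4 arrays, a choice that does not use the comparison. A feature was compared where it was well above background on both. Where every probe of a gene was below on 1 array, the bound sets the bright level against the higher of the dim probe's own and the lowest level well above background on the dim array. Replicate spots of 50 probes had a median SD of 0.145 (ISC level) and 0.148 (control) in log2, a technical spread. The number of arrays limits the precision, and no test was run.

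The comparison, the 29 gene lists and the 14 marker sets were chosen with earlier results of these data known. Of their 1039 symbols, 392 could be named. Sets with fewer than 2 named members were not summarised, no mast cell marker could be named, and of 9 chondrocyte markers COL2A1 and CNMD were measured. Lists share members with marker sets. Named are the 25 highest and 25 lowest genes, members of each list past 2-fold or at its ends, 14 fixed genes and the 8 largest bounds each way, with some left out for length and a few not reported here. Genes outside this rule were named after their values were seen, also where a list's further members are given. Alternatives were quantile and cyclic loess normalization and normexp (limma 3.58.1, R 4.3.3, offset 50, on median spot signals), other filters, folds, probe rules and controls. Scripts ran in Python 3.11.15 with pandas 2.3.3 and were tested on simulated data.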

Additional observations from a re-analysis of the deposited data

Results flagged for a closer look

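The following named genes were at least 2-fold apart in opposite directions in the comparison of the ISC level with its control and in that of the fused levels with the other control. The difference between these comparisons was not tested, each rests on 1 array a side, and they share no array. Each uses its own control, so a gap between the controls can by itself give opposite directions, and its part was not tested. Among all features on all 4 arrays called higher at the ISC level, 13.7% were at least 2-fold lower and 9.66% at least 2-fold higher at the fused levels, and of those called lower, 11.9% were higher and 13.9% lower. Over all 12741 features on all 4 arrays, 1125 were at least 2-fold lower and 959 higher at the fused levels. Of 84 named genes among them called higher, 14 were lower and 12 higher at the fused levels. Of 90 called lower, 14 were higher and 10 lower, and not all are given here.

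Among the genes so chosen, some matrix and skeletal genes were higher at the ISC level and lower at the fused levels. BGN was at 1.27 at the ISC level and at −2.07 at the fused levels, COL8A1 at 1.30 and −1.68, TIMP1 at 1.05 and −1.26, and PTHLH at 1.19 and −1.59. Receptors, transporters and signalling genes with the same pattern were FGFR2 (1.11 and −1.60), VLDLR (2.20 and −1.02), SLC6A8 (2.09 and −1.25), CACNA2D1 (1.02 and −2.20) and RGS4 (1.46 and −2.37). The splicing factor gene MFAP1 was at 1.55 and −1.06. MYL1, a muscle gene, was at 1.25 and −6.65, and the other control held the most skeletal muscle signal. Set against the other control, the ISC level was lower for PTHLH (−0.40), FGFR2 (−1.500), VLDLR (−1.27), CACNA2D1 (−0.86), RGS4 (−0.38) and MYL1 (−4.53). The rest kept their sign there, BGN at 0.15 and COL8A1 still past 2-fold.

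Lower at the ISC level and higher at the fused levels were PRKCB (−2.58 and 3.52), TACC3 (−1.96 and 3.79), PPARG (−1.996 and 2.63), EIF2AK1 (−1.75 and 1.84), and SLC4A4, a bicarbonate transporter gene (−2.08 and 1.10). The Schwann cell marker S100B (−1.07 and 1.53) did so too. The neutrophil gene S100A9 was at −1.13 and 5.34, and the summed level of neutrophil markers was highest at the fused levels. Set against the other control, the ISC level was higher for PRKCB (0.49), TACC3 (0.060), PPARG (0.85), EIF2AK1 (0.45) and S100B (0.16). SLC4A4 and S100A9 kept their sign there.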

How the results depend on the processing

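No paired analysis was possible because each group has 1 array. For the same reason no array could be left out. The count of 1246 features at least 2-fold higher and 1440 lower was 347 and 176 with normexp, 3021 and 2876 without a filter on dim probes, 500 and 710 against the other control, 530 and 563 against the mean of both controls, 2471 and 3621 at 1.5-fold, and 388 and 412 at 3-fold. When 1 array well above background was enough, 2681 were higher, which was over 1.5 times the main count, and 1974 lower. Quantile normalization, cyclic loess, centring on bright probes, the authors' scaling, features on all 4 arrays and the mean over probes kept both counts within 1.5 times. Higher features made up 46.4% of calls. They made up 58.9% with the authors' scaling, whose median difference of −0.04 lies above the −0.17 of the values reported, 66.3% with normexp, 57.6% with 1 array well above background, and between 40.6% and 51.2% under the other alternatives.

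Of 116 genes past 2-fold that were rechecked, 109 kept 2-fold in the same direction with cyclic loess, 108 with quantile normalization, 104 with the authors' scaling, 107 with the mean over probes and 36 with normexp, and all 116 kept their sign under these. Against the other control 25 kept 2-fold and 89 their sign, and against the mean of both controls 50 and 113. With the authors' scaling CD28, FMO5, GYS1, PGM1 and S100B lay just under 2-fold, from −0.9993 to −0.95. The sign turned against the other control for CACNA2D1 (−0.86), CAMK2D (−0.46), CYP2C16 (0.79), EIF2AK1 (0.45), FGFR2 (−1.500), FMO5 (0.046), GNPTAB (−0.14), LARK (0.33), MYL1 (−4.53), NHERF2 (−0.73), NHLRC3 (−0.53), PPARG (0.85), PRKCB (0.49), PTHLH (−0.40), RGS4 (−0.38), S100B (0.16), S1PR1 (−0.087), TACC3 (0.060) and VLDLR (−1.27). It also turned for ALB (2.11), IGF1 (0.67), IL1A (0.28), KDR (1.06), LOC100340556 (2.61), ORYCUNV1R1535 (1.76), SPA17 (1.97) and XKRX (1.89), which were not well above background on that array. Against the mean of both controls it turned for FGFR2 (−0.19), MYL1 (−1.64) and XKRX (0.012). The cause was not tested. Dim features were limited by signal over background, and the spot error covers the scanner alone.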

Other observations

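Some named genes that belong to no list of ligament biology were also among those well above background. Of 13 genes of vomeronasal V1R pheromone receptors that could be named, gathered after their values were seen, 8 were measured, 4 were lower by 2-fold or more than in the control of L3/4 and 0 higher, with a median of −1.004 and of −0.18 against the other control. Over all features 10.5% were lower and 9.08% higher. These probes were dim, with a median level of −2.78 at the ISC level and −1.44 in the control of L3/4. In bins 1 and 2 of mean level (1 is the lowest), 14.7% and 14.5% of features were lower and 1.02% and 11.1% higher. ORYCUNV1R1535 stood at −3.74 at the ISC level, −0.47 in the control of L3/4, −5.88 at the fused levels (not well above background) and −5.497 in the other control (not well above background), and ORYCUNV1R1631 at −2.10 at the ISC level, −0.10 in the control of L3/4, −2.85 at the fused levels and −1.77 in the other control, so the control of L3/4 was the high array for both.

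Probes of the lung surfactant genes SFTPA1 and SFTPB read bright on every array. SFTPA1 was at 7.68 at the ISC level, 7.83 in the control of L3/4, 7.37 at the fused levels and 7.73 in the other control, and SFTPB at 5.19 at the ISC level, 5.73 in the control of L3/4, 5.14 at the fused levels and 5.37 in the other control. The differences between the ISC level and its control were −0.15 and −0.54. The PTGER2 probe was among the brightest too, at 10.08 at the ISC level, 10.62 in the control of L3/4, 9.997 at the fused levels and 10.32 in the other control. What these probes bind was not tested.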
